A study of Rattus norvegicus with 8 samples.

Results

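The genes described here act on lipoproteins after secretion: the lipases Lipc and Lpl, the lipase inhibitor Angptl4, the cholesterol-esterifying enzyme Lcat, the phospholipid carrier Pltp, the receptors Scarb1 and Lrp1, and the cholesterol exporters Abca1 and Abcg1. They were listed by name and matched to array probes by the RefSeq accession each probe carries. Of the 9 genes listed, 7 had a probe under this rule and all 7 entered the test, out of 25128 genes tested. Pltp and Lrp1 are not analysed here. The arrays, 8 in all, were single-colour (Cy3) Agilent arrays hybridised with liver RNA from male Wistar/ST rats. Every rat received a high-fat diet together with water rich in fructose for 5 weeks. The 4 Control samples came from rats without the plant, and the 4 Eucommia samples from rats whose drinking water was an extract of the leaves of Eucommia ulmoides, a tree used for herbal tea. The design has no group on an ordinary diet, so all values describe livers under the diet. The labels number 4 samples a group and speak of liver taken from each rat, but do not state outright that arrays and rats correspond 1 to 1. The p-values below therefore measure only how far these samples spread, which may be technical. The 4 control arrays shared slide 1 and scan 1, and the 4 Eucommia arrays slide 2 and scan 2, so for every difference given here group and slide cannot be told apart.

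Lipoproteins are remodelled in the circulation and taken up largely by the liver. Lipoprotein lipase, made mainly by fat, muscle and heart, and hepatic lipase, made by hepatocytes, hydrolyse lipoprotein triglycerides and phospholipids, and angiopoietin-like proteins restrain lipases. Lecithin-cholesterol acyltransferase esterifies the cholesterol of high-density lipoprotein (HDL), phospholipid transfer protein moves phospholipids between particles, and the exporters ABCA1 and ABCG1 load HDL and its precursors with cholesterol from cells. Scavenger receptor class B type 1 takes cholesteryl esters from HDL into hepatocytes, and LDL receptor-related protein 1 clears remnants. The exporters are targets of the oxysterol receptors LXR, and Angptl4 is a target of the fatty acid receptors PPAR.

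None of the 7 genes passed the threshold between the groups (0 of 7 at an adjusted p under 0.05, limma over all genes tested). Of all 25128 genes tested, 18.4% were called higher and 6.24% lower in Eucommia. Many of the higher calls were of dim genes. Among the 9262 genes brighter than the arrays' 75th percentile, which is where 6 of the 7 genes lie, 3.94% were called higher and 5.97% lower. At an unadjusted p under 0.05 there was 1 of the 7 genes, Lcat, against 9000 of all genes. The median difference of the 7 genes (Eucommia minus control, log2) was -0.10, beside 0.02 over all genes and -0.04 over the bright genes. 5 of the 7 differences were below 0, a number that ran from 4 to 6 under the other scalings. Lcat alone had groups that did not overlap, and 17.3% of the bright genes did so too.

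Signals below are log2 values relative to the array's 75th percentile, so 0 is the signal at that percentile. A probe's level depends on its sequence, so levels are compared between arrays and never between genes.

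**Figure D1:**
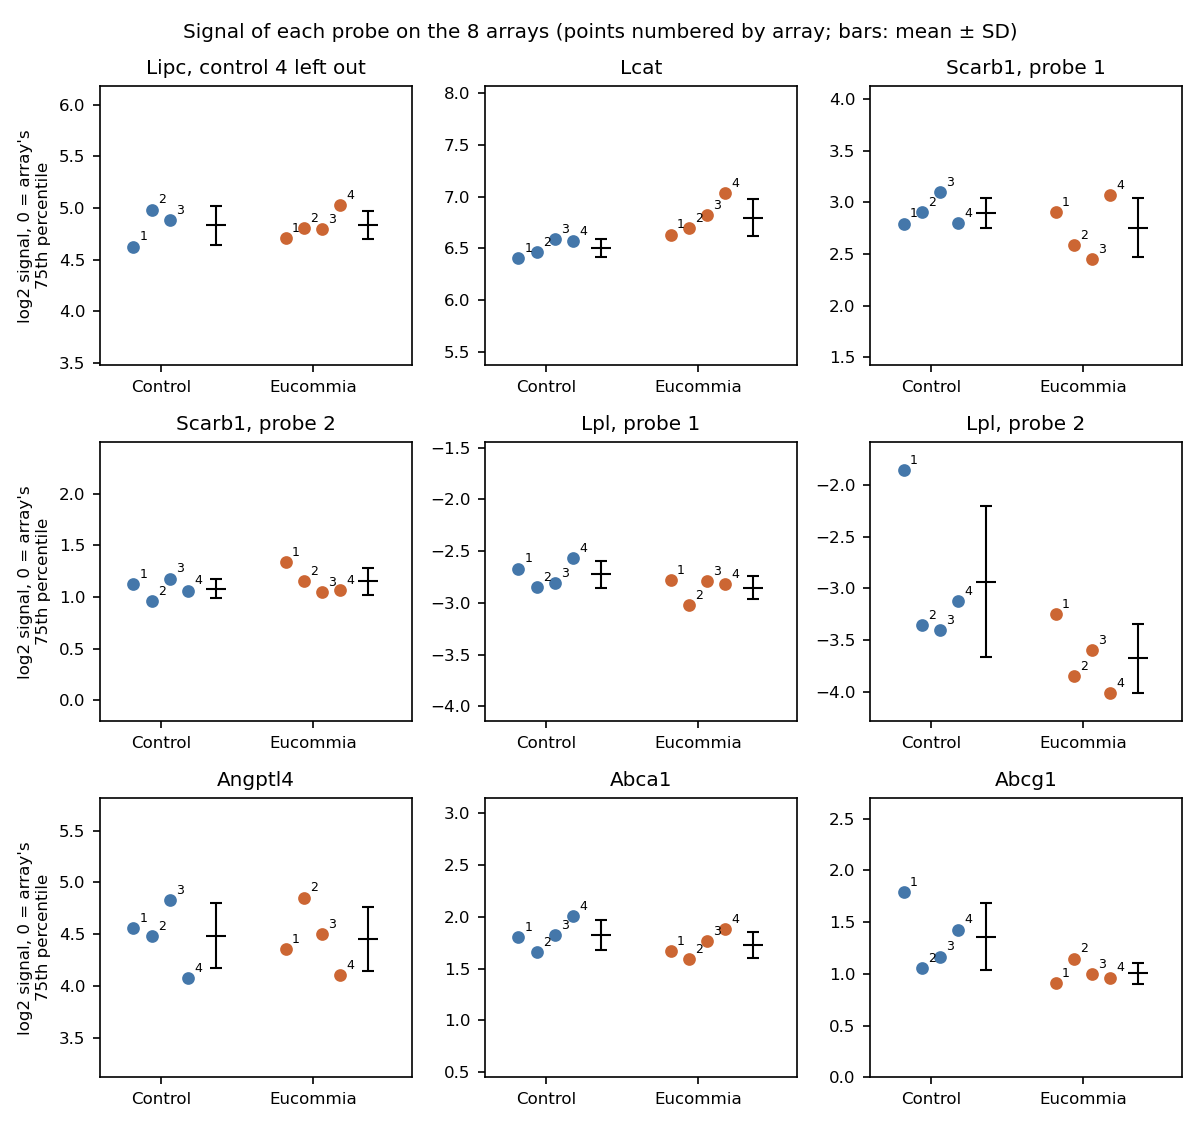
Log2 signal (vertical axis, 0 at the array's 75th percentile) of the 9 probes of the 7 genes on each array. Points are arrays, numbered as in the labels, and bars give the mean ± SD of each group. The 4 Eucommia points of Lcat lie above its 4 control points, and every other panel has overlapping groups. All panels span the same number of log2 units.

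Lcat, the plasma enzyme that makes cholesteryl esters on HDL, was the only one of the 7 whose groups stood apart. Its log2 signals were 6.40, 6.46, 6.59 and 6.57 on control arrays 1 to 4 and 6.63, 6.70, 6.82 and 7.03 on Eucommia arrays 1 to 4. The lowest Eucommia array was just above the highest control array, and Eucommia 4 was the highest of all. The group means were 6.51 ± 0.09 (SD, n = 4) in control and 6.79 ± 0.18 (SD, n = 4) in Eucommia. The difference of 0.29 ± 0.11 (SE), a ratio of 1.22 with a 95% interval of 0.04 to 0.54 on the log2 scale, had an adjusted p of 0.0919 (limma) and did not pass. An exact 2-sided permutation test over the 70 regroupings of the arrays gave p = 0.0286, which is the smallest that 4 against 4 arrays can give. Groups that do not overlap always give this value, so it adds nothing to the lack of overlap. That lack was seen in 17.3% of the bright genes. With quantile normalization the difference was 0.36 (adjusted p = 0.0122, limma), and with median centring it was 0.03 (adjusted p = 0.852, limma). Median centring moved the median of all genes from 0.02 to -0.24, and values under it are read against that shift.

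The positive control probes, which detect RNA added in known amounts and not rat RNA, were read beside this difference. Of the 10 such probes, the 4 with levels between 0.79 and 6.36 differed by 0.17 to 0.36 (log2), all with a higher Eucommia mean. The groups overlapped on each of these 4, where Eucommia 3 read below control 3. The probe at 6.36 read 6.08 to 6.44 in control and 6.24 to 6.62 in Eucommia. The probe at 6.36 differed by 0.21, the probe at 7.29 by -0.18 and the probe at 9.34 by 0.01. Lcat's mean level of 6.65 lies between the probes at 6.36 and 7.29, and its difference of 0.29 is above both of theirs. Of the other genes, mean levels within 0.79 to 6.36 were those of Abcg1 (1.18), Abca1 (1.78), Scarb1 (2.83, brighter probe), Angptl4 (4.47) and Lipc (4.83). All of these but Lipc had differences below 0, opposite in sign to the 4 probes. Lpl (-2.79) was also lower in Eucommia, while the probes on either side, at -3.83 and -0.36, differed by 0.45 and 0.29. The part of slide or labelling in these differences, and in that of Lcat, was not tested.

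**Figure D2:**
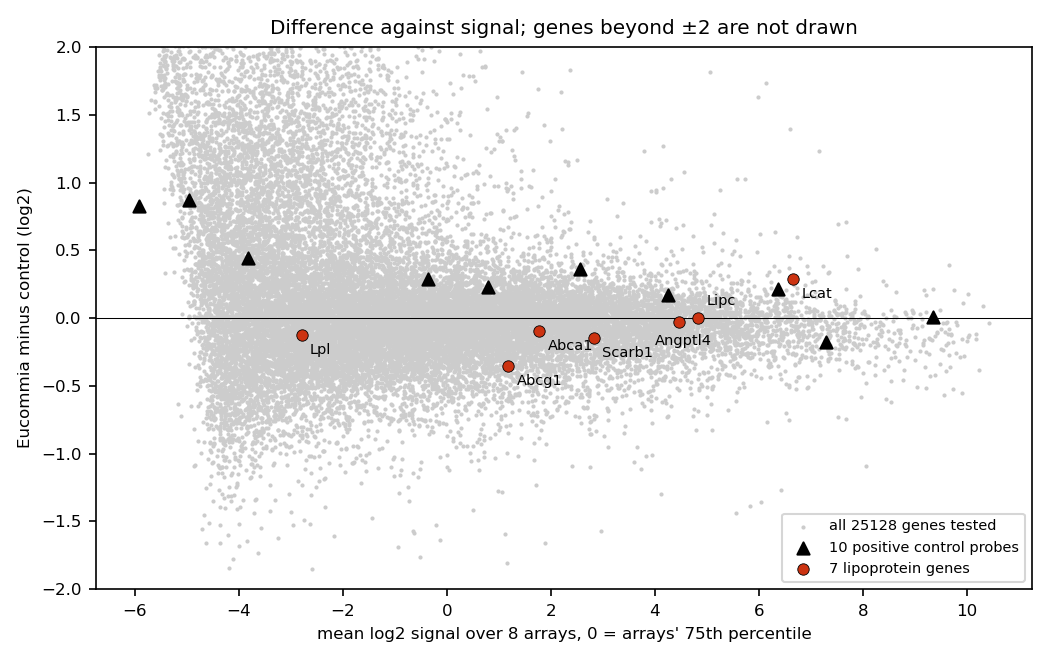
Difference between the groups (vertical axis, Eucommia minus control, log2) against the mean log2 signal over 8 arrays (horizontal axis, 0 at the arrays' 75th percentile) for all 25128 genes tested (grey), the 10 positive control probes (triangles) and the 7 lipoprotein genes (red). Genes of low signal spread upward, and the red points lie between -0.35 and 0.29; 773 genes beyond 2 in size are outside the axis.

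Abcg1, which exports cholesterol to HDL and is abundant in macrophages, had the largest difference toward lower values of the 7 genes, each by its brightest probe. On control arrays 1 to 4 it read 1.79, 1.05, 1.17 and 1.43 (log2 signal), and on Eucommia arrays 1 to 4 it read 0.91, 1.15, 0.998 and 0.96. Controls 1 and 4 were high, controls 2 and 3 were close to the Eucommia arrays, and 3 of the 4 Eucommia arrays were below the lowest control. The difference was -0.35 ± 0.16 (SE; 95% interval -0.72 to 0.01), a control level 1.28 times that of Eucommia, with an adjusted p of 0.148 (limma) and an exact permutation p of 0.0571 (2-sided). Without control 1 it was -0.21 (adjusted p = 0.257, limma), and with median centring -0.61 (adjusted p = 0.0239, limma). Under median centring the median of all genes was -0.24.

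Markers of Kupffer cells and macrophages are given beside Abcg1. All 12 tested markers of the 14 listed had a lower mean in Eucommia, and 0 of 12 passed. The differences ran from -1.10 (Marco, a scavenger receptor of macrophages) to -0.15 (Csf1r, the receptor for a macrophage growth factor). Csf1r was named after its values were seen. All 12 were well above background on all 8 arrays. Their summed signal (log2 of the sum of linear signals) ran from 7.08 to 7.89 on control arrays and from 6.75 to 7.70 on Eucommia arrays. Controls 1 and 4, the highest controls for Abcg1, were also the highest controls for 11 of the 12 markers. Eucommia 2, the highest Eucommia array for Abcg1, was the highest of its group for 10 of the 12. These arrays were picked from the Abcg1 values, and the order was not particular to macrophage markers. Controls 1 and 4 also had the highest control sums of endothelial, bile duct and adipocyte markers. They did not for hepatocyte, stellate, muscle or acinar markers. The adipocyte sum was highest in Eucommia 2 within its group too. The part of macrophage RNA in the Abcg1 values was not tested, and in bulk liver fewer cells of a type cannot be told apart from less RNA per cell.

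**Figure D3:**
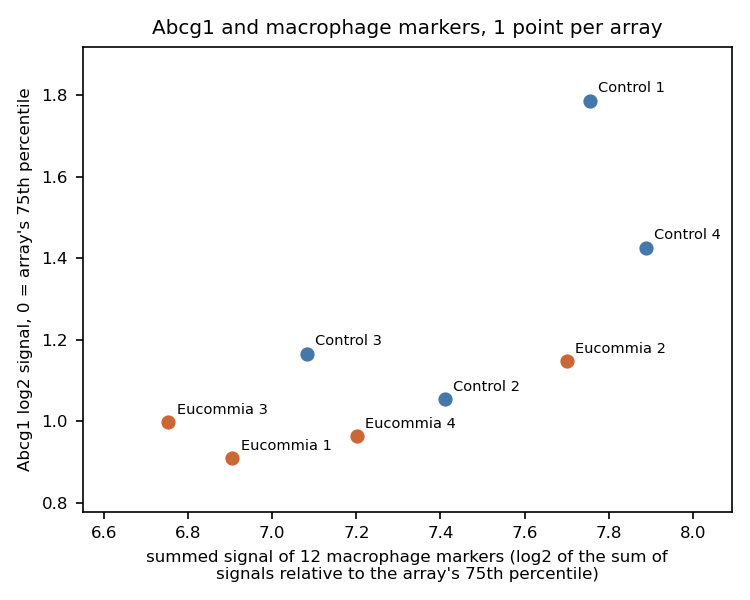
Abcg1 log2 signal (vertical axis, 0 at the array's 75th percentile) against the summed log2 signal of 12 macrophage markers (horizontal axis), 1 point per array. Controls 1 and 4 are highest on the vertical axis, and on both axes Eucommia 2 is the highest array of its group.

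Abca1, which loads lipid onto apolipoprotein A-I to start HDL, had overlapping values in the 2 groups. The arrays gave log2 signals of 1.80, 1.66, 1.82 and 2.01 on control arrays 1 to 4 and 1.67, 1.59, 1.77 and 1.88 on Eucommia arrays 1 to 4. Both groups spanned much of the same range, with only Eucommia 2 below the lowest control. The difference was -0.10 ± 0.11 (SE; 95% interval -0.34 to 0.15; adjusted p = 0.564, limma). With median centring it was -0.36 (adjusted p = 0.0441, limma), a scaling that moved the median of all genes from 0.02 to -0.24.

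Scarb1, the HDL receptor of hepatocytes, was read by 2 probes to the same transcript, and they did not share a sign. The brighter probe gave 2.79, 2.91, 3.10 and 2.80 on control arrays 1 to 4 and 2.91, 2.58, 2.45 and 3.07 on Eucommia arrays 1 to 4. Eucommia arrays 2 and 3 were below every control while arrays 1 and 4 were among the controls, and the difference was -0.15 ± 0.15 (SE; 95% interval -0.49 to 0.20; adjusted p = 0.538, limma). The dimmer probe ran from 0.96 to 1.18 in control and from 1.05 to 1.34 in Eucommia, a difference of 0.07 ± 0.10 (SE; adjusted p = 0.668, limma with each probe on its own). On the dimmer probe the low values of Eucommia 2 and 3 were not seen, since both lay within the control range there.

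Lipc, the hepatic lipase, was measured on 7 arrays because its spot on control 4 was marked as non-uniform by the scanner software and left out. Its log2 signals were 4.63, 4.99 and 4.88 on control arrays 1 to 3 and 4.71, 4.81, 4.79 and 5.03 on Eucommia arrays 1 to 4. The groups overlapped throughout, and the difference was 0.0031 ± 0.13 (SE; 95% interval -0.30 to 0.30; adjusted p = 0.990, limma with 3 control arrays). The marked spot had a processed signal of 2165 units against 5767 to 6713 on the other arrays, with a median pixel of 72.5 against 4791 to 5638. With that spot kept, at a log2 signal of 3.18, the difference would be 0.42 (adjusted p = 0.459, limma), a value that rests on 1 spot.

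Lpl, the lipase of peripheral tissues, was dim in this liver RNA, with processed signals between 12.5 and 70.5 units over its 2 probes, although both were well above background on all 8 arrays. The probe printed at 10 spots per array gave -2.67, -2.85, -2.81 and -2.57 on control arrays 1 to 4 and -2.78, -3.02, -2.79 and -2.82 on Eucommia arrays 1 to 4. The spots of an array had an SD of 0.06 to 0.24 (median 0.12, log2). Its difference was -0.13 ± 0.10 (SE; 95% interval -0.36 to 0.10; adjusted p = 0.414, limma). With quantile normalization it was -0.37 (adjusted p = 0.0389, limma) and with median centring -0.39 (adjusted p = 0.0289, limma). The median of all genes was -0.02 and -0.24 under these 2 scalings.

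The second Lpl probe, with a single spot, spread more widely. It gave -1.86, -3.35, -3.41 and -3.12 on control arrays 1 to 4 and -3.25, -3.85, -3.59 and -4.01 on Eucommia arrays 1 to 4. Control 1 stood above the 7 other arrays, and the difference of -0.74 ± 0.34 (SE; adjusted p = 0.157, limma with each probe on its own) was -0.38 ± 0.19 (SE; adjusted p = 0.193) without it. Markers of tissues rich in Lpl were mixed. Adipoq, Lep and Retn of adipocytes were not well above background on any array, nor were Acta1, Myh1, Myh2, Myh4, Ckm and Tnnt3 of skeletal muscle. The 4 adipocyte markers that were tested had a summed log2 signal of 4.22 to 4.51 in control and 4.01 to 4.29 in Eucommia, with 1 of 4 (Cfd, a complement factor of fat cells) lower. The 3 tested muscle markers summed to -0.24 to 0.18 in control and 0.43 to 0.62 in Eucommia, with 2 of 3 higher. The part of fat or muscle RNA in the Lpl values was not tested.

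Angptl4, a secreted inhibitor of lipoprotein lipase, varied most within its groups. Its log2 signals were 4.56, 4.48, 4.83 and 4.08 on control arrays 1 to 4 and 4.36, 4.85, 4.50 and 4.11 on Eucommia arrays 1 to 4. Each group held a high array (control 3, Eucommia 2) and a low one (array 4 of each), and the groups covered almost the same range. The pooled SD within groups was 0.31, larger than that of 91.5% of the bright genes, whose median was 0.14. The difference was -0.03 ± 0.20 (SE; 95% interval -0.48 to 0.41; adjusted p = 0.928, limma), and its sign changed in 8 of 22 other settings.

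The spread set how small a change the test could call. At each gene's own standard error, the smallest difference that would have passed was 0.32 for Lpl, 0.34 for Abca1 and for Lcat, 0.42 for Lipc, 0.48 for Scarb1, 0.50 for Abcg1 and 0.62 for Angptl4. These are sizes of the observed difference at this scaling.

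**Figure D4:**
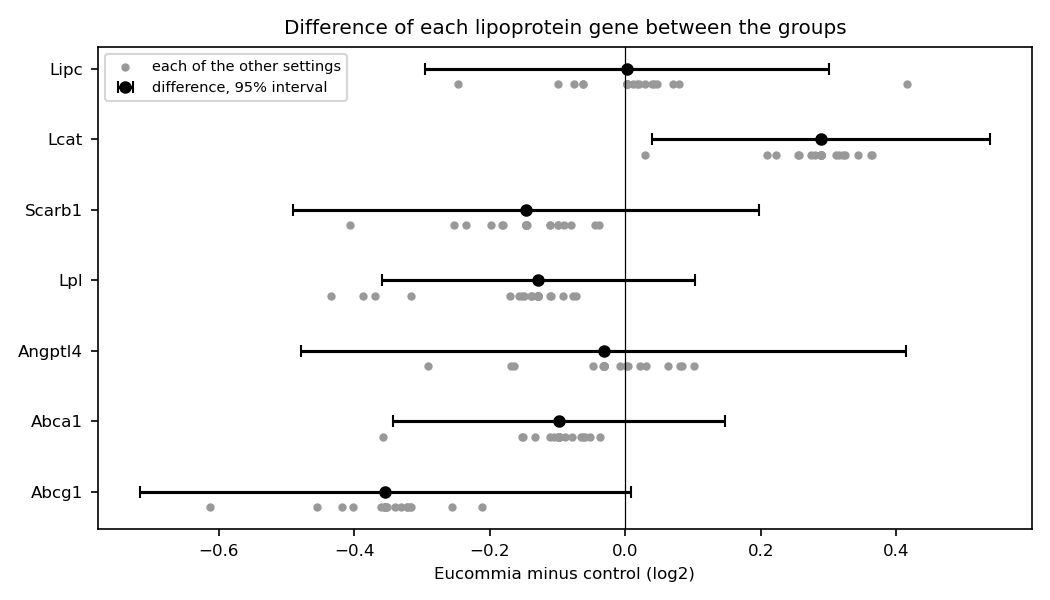
Difference between the groups for each of the 7 genes (horizontal axis, Eucommia minus control, log2). Black points and bars are the estimate and its 95% interval, and grey points are the values under the other settings. The interval of Lcat lies above 0, that of Abcg1 reaches 0.01, and the others span 0.

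For the list counts from here on, the shares over all genes tested were 18.4% called higher and 6.24% called lower. Of 18 other lipoprotein receptors and their regulators reported here 11 were tested. Among those 11 the limma fit called 0 higher and 0 lower, with 0 at an unadjusted p under 0.05, and the median difference was -0.07. The smallest p-values were those of Ndst1, an enzyme of heparan sulphate synthesis, with a difference of 0.24 ± 0.15 (SE; adjusted p = 0.280, limma), and Mylip, a ubiquitin ligase that is an LXR target, with -0.26 ± 0.16 (SE; adjusted p = 0.285, limma). The groups of both genes overlapped. Vldlr and Olr1 were not well above background on any array.

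Among lipase cofactors and inhibitors, 10 of the 14 genes reported here were tested, 1 was higher and 1 lower, and the median was -0.03. Gpihbp1, which carries lipoprotein lipase across the capillary wall, rose by 1.04 ± 0.23 (log2, SE; adjusted p = 0.00899, limma). It was dim, with -4.67, -4.02, -4.18 and -3.98 on control arrays 1 to 4 and -3.16, -2.75, -3.72 and -3.04 on Eucommia arrays 1 to 4, and it cleared the background test on 2 of 4 control and 4 of 4 Eucommia arrays. With normexp and quantile normalization the rise was 0.25 (adjusted p = 0.0235, limma). The mean level of Gpihbp1, -3.69, lies between the positive control probes at -3.83 and -0.36, which differed by 0.45 and 0.29 in the same direction. Endothelial markers, 8 tested of 10 listed, had 2 higher and 1 lower, with summed log2 signals of 6.87 to 7.16 in control and 6.66 to 6.86 in Eucommia. Neither the part of the slides nor that of endothelial RNA in this value was tested. Pcsk6, a proprotein convertase, fell by 0.35 ± 0.09 (log2, SE; adjusted p = 0.0237, limma), and lost the call without control 2 or 3 or without Eucommia 1, 2 or 3 (adjusted p from 0.0549 to 0.0780); with median centring it fell by 0.61. Apoc2, the activator of lipoprotein lipase, named after its values were seen, differed by 0.06 ± 0.10 (SE; adjusted p = 0.713, limma). Lipg, the endothelial lipase, was not well above background on any array.

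HDL proteins and sterol-handling genes had 17 of 19 tested, 2 higher and 1 lower, with a median of -0.01 that stays the same with Abcg4 at its lower bound. Apoe, a ligand for remnant receptors, fell by 0.38 ± 0.10 (log2, SE; adjusted p = 0.0184, limma). Signals of Apoe were 10.28, 10.47, 10.51 and 10.37 on control arrays 1 to 4 and 9.90, 10.04, 9.99 and 10.17 on Eucommia arrays 1 to 4, with no overlap. The call was lost without control 3 or without Eucommia 1, 2 or 3 (adjusted p from 0.0505 to 0.0611), and Apoe fell by 0.64 with median centring and by 0.21 with normexp and quantile normalization. Abcg4, an exporter related to Abcg1, did not rise well above background on the control arrays (0 of 4) and was at least 2.01-fold higher in Eucommia (adjusted p = 0.00051, limma, with a measured mean of -5.72 in control and -4.05 in Eucommia). That bound holds for the 75th percentile scaling: with normexp and quantile normalization the measured difference of Abcg4 was 0.13 (log2; adjusted p = 0.0477, limma). Abcg4 met the filter on dim probes only through its 4 Eucommia arrays, so filter and call rest on the same values. It therefore left the test with the filter on all 8 arrays and whenever a Eucommia array was left out. With no filter its adjusted p was 0.000624 (limma). Apod, an apolipoprotein found on HDL and above background on 1 control array and 4 Eucommia arrays, rose by 0.98 ± 0.31 (log2, SE; adjusted p = 0.0473, limma), and did not pass without control 2 or 3 or without any of the 4 Eucommia arrays (adjusted p from 0.0618 to 0.127), while without control 1 it passed at 0.65. Apod also did not pass with quantile normalization (0.72, adjusted p = 0.0760), median centring (0.72, 0.0667), cyclic loess (0.86, 0.0565) or normexp and quantile normalization (0.12, 0.174). The mean levels of -4.89 (Abcg4) and -4.15 (Apod) lie between the positive control probes at -4.95 and -3.83, which differed by 0.87 and 0.45. Apoa1, the main protein of HDL, named after its values were seen, differed by -0.29 ± 0.12 (SE; adjusted p = 0.110, limma).

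The LXR list includes Abca1, Abcg1 and Lpl themselves and shares Apoe with the HDL list. It had 15 of 19 genes tested, 0 higher and 3 lower, with a median of -0.13, where 6.24% of all genes tested were lower. Besides Apoe the lower genes were Fasn, the fatty acid synthase, and Lpcat3, which remodels membrane phospholipids. Fasn gave 2.69, 2.33, 2.04 and 2.03 on control arrays 1 to 4 and 1.45, 1.32, 1.60 and 1.95 on Eucommia arrays 1 to 4, a fall of 0.69 ± 0.19 (log2, SE; adjusted p = 0.0253, limma). Lpcat3 fell by 0.28 ± 0.08 (log2, SE; adjusted p = 0.0357, limma). Fasn lost the call without control 2 or without Eucommia 1, 2 or 3 (adjusted p from 0.0573 to 0.0832), and Lpcat3 without control 1, 2 or 4 or Eucommia 1, 2 or 3 (0.0701 to 0.101). Lpcat3 also lost it with quantile normalization (adjusted p = 0.0636), cyclic loess (0.0638) and the percentile over detected probes (0.0550); it fell by 0.53 with median centring and by 0.16 with normexp and quantile normalization. With the replicate block Apoe (adjusted p = 0.0580, limma), Fasn (0.0766) and Lpcat3 (0.115) did not pass. The receptor Nr1h3 (LXR alpha), named after its values were seen, differed by -0.18 ± 0.10 (SE; adjusted p = 0.227, limma).

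The list of PPAR receptors and their targets, which includes Angptl4 and Lpl, had 18 of 20 genes tested, 3 higher and 2 lower, with a median of 0.02. The higher genes were Ppard, a PPAR receptor, by 1.80 ± 0.10 (log2, SE; adjusted p = 5.51e-06, limma), Cpt1a, which admits fatty acids into mitochondria, by 0.47 ± 0.13 (adjusted p = 0.0328), and Ehhadh, a peroxisomal oxidation enzyme named after its values were seen, by 0.39 ± 0.11 (adjusted p = 0.0353). The lower genes were Fabp1, the fatty acid carrier of hepatocytes, which fell by 0.52 ± 0.10 (log2, SE; adjusted p = 0.00467, limma), and Pparg, another PPAR receptor, which fell by 0.48 ± 0.12 (adjusted p = 0.0149). Ppard was dim, at -3.79 in control and -1.99 in Eucommia. Its mean level of -2.89 lies between the positive control probes at -3.83 and -0.36, which differed by 0.45 and 0.29. With normexp and quantile normalization Ppard rose by 0.51 (adjusted p = 0.000107, limma). Pparg, which fell, lies between the same probes at a mean level of -2.74. Cpt1a did not pass without control 1, 2 or 4 or Eucommia 1, 2 or 3 (adjusted p from 0.0516 to 0.105), nor Ehhadh without control 2, 3 or 4 or Eucommia 1, 2 or 3 (0.0616 to 0.112), nor Pparg without Eucommia 1 (0.0508). With median centring Cpt1a (0.21, adjusted p = 0.189) and Ehhadh (0.13, 0.370) did not pass. Fabp1 fell by 0.78 with median centring and by 0.34 with quantile normalization, and Pparg by 0.74 with median centring and by 0.26 with normexp and quantile normalization.

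**Figure D5:**
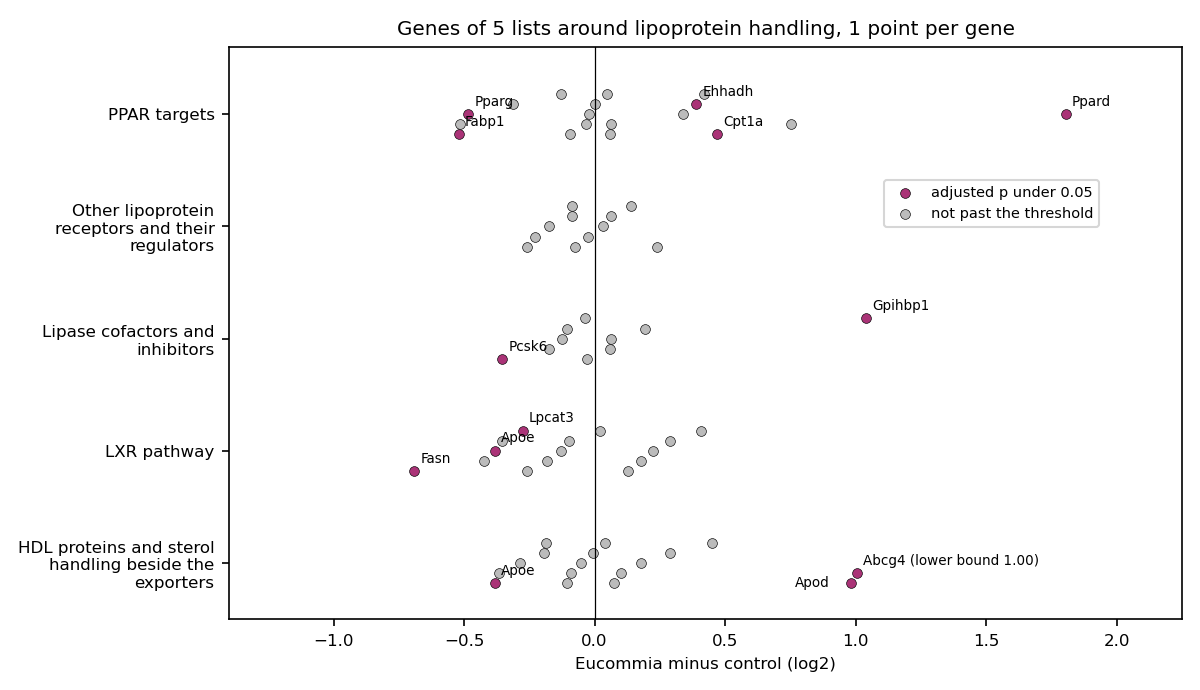
Difference between the groups (horizontal axis, Eucommia minus control, log2) of each tested gene reported from 5 lists around lipoprotein handling, 1 row per list, with vertical scatter only to separate points. Coloured points passed an adjusted p of 0.05 and are named; Fasn is farthest to the left and Ppard farthest to the right, and Abcg4 is drawn at the lower bound that corresponds to 2.01-fold.

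For each of the 6 genes measured on all 8 arrays, the genes whose array-to-array profile lay nearest were taken from 8462 candidates, by the root mean square difference of log2 values after each gene's mean was removed. For Lcat these were Ppp2r1a (0.0429) and Ubr3 (0.0462), against a deviation of 0.188 of Lcat around its own mean. For Abcg1 they were Il21r (0.0693) and Msra (0.0744), against 0.274, and for Scarb1 they were Bcat2 (0.0680) and Afp (0.0718), against 0.209. The nearest to Abca1 were Nhlrc2 (0.0470) and Cep131 (0.0524), against 0.127, and to Lpl they were Atp9b (0.0489) and Ubxn8 (0.0588), against 0.123. Angptl4 had the most distant neighbours, Ppp1r3d (0.127) and Emp2 (0.133), against 0.270. The distances are given as a description.

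The labelled tissue was checked on 10 hepatocyte markers, all well above background on 8 arrays. Of these 0 of 10 were called, with summed log2 signals of 12.2 to 12.4 in control and 12.1 to 12.3 in Eucommia. The mean was lower in Eucommia for 8 of the 10, and the groups of Ttr did not overlap. Alb differed by -0.17 on its brightest probe, and by -0.22 and -0.42 on dimmer ones (unadjusted p = 0.0512 and 0.00205, limma with each probe on its own). Over the whole array, 58.9% to 61.5% of spots were well above background on control arrays and 69.3% to 71.9% on Eucommia arrays. Of all called genes 74.6% were higher in Eucommia, a share that was 31.9% with median centring, 58.8% with quantile normalization, 65.2% with cyclic loess and 59.7% with normexp and quantile normalization. Markers of stellate cells (9 tested of 10, 1 higher) summed to 4.88 to 5.51 in control and 5.34 to 5.64 in Eucommia. Those of bile duct cells (4 tested of 6, 1 higher and 1 lower) summed to 0.94 to 1.36 and 1.23 to 1.40. Those of pancreatic acinar cells (7 tested of 12, 3 higher) summed to 0.86 to 1.03 and 1.57 to 2.08. Beside these counts, 18.4% of all genes tested were called higher and 6.24% lower, and many of the higher calls were of dim genes. The higher stellate marker, Col1a1, differed by 0.83 on its brighter probe and by -0.21 on its dimmer one. The higher bile duct marker, Cldn4, differed by 1.54 and -0.16 in the same order.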

How the data were processed

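Intensity values of 1-colour arrays are deposited as scanner output of Agilent Feature Extraction 10.1.1.1, a version named both in the submitters' processing notes and, per the file headers, in each file. The processed signal is background-subtracted within each array and not normalized between arrays, per the file headers. Other columns deposited there mark control spots, outlier spots, saturation (0 spots here) and spots well above background. The deposited series table, also intensity, held the same values for all 43379 spots that are not controls (100% on each array, tolerance 1e-06, medians 24.2 to 29.6), so its scale is linear and uncentred. From each 500 ng of total RNA labelled cRNA was made, per the labels' protocols.

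Signals were put on the log2 scale, each array's 75th percentile was subtracted, and spots of a probe were averaged. Control and outlier-marked spots were left out. A probe was kept if well above background on at least 4 of 8 arrays (27724 of 41012). Probe accessions, without versions, were looked up among RefSeq genes of assembly GRCr8; 16336 probes were named, with 13031 symbols. A gene is its brightest probe, and an unnamed probe counts as a gene of its own, so 9977 of the 25128 genes tested have a symbol. No coordinates are given, since the array was designed on another build.

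Groups were compared with limma 3.58.1 (R 4.3.3, lmFit and eBayes), 2-sided, with Benjamini-Hochberg adjustment over all genes and a threshold of 0.05. A gene with no probe above background on any array of a group has a lower bound as its fold: the other group's mean against, per array, the probe's own signal or, where higher, the dimmest signal that was well above background. On simulated data for Eucommia against control (25107 genes), 50 genes were changed for each size of change. Called were 82% of those raised by 1 (log2), 92% lowered by 1, 22% raised by 0.5 and 0% raised by 0.3, beside 10 unchanged genes. With far fewer changed genes than the 6181 called in the data, the adjustment was stricter in the simulation. These shares are therefore not the power of the fit to the data.

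The genes, the 5 pathway lists, the 8 marker lists and the tests were chosen with earlier results of these data known. Named are all 9 genes, the 2 nearest profiles and up to 4 called members of each pathway list by smallest p. Where no member of a pathway list was called, 2 are named by smallest p. From each marker list up to 2 members could be named by smallest p. Some listed genes not well above background on any array are named too. Others are said to be named after their values were seen. A few listed genes are not reported here and are left out of the list counts. The labels give no pairing of samples beyond equal replicate numbers. Deviations of same-numbered arrays correlated at -0.04, -0.03, -0.06 and -0.10. Those of differently numbered arrays ran from -0.10 to 0.10, so these values cannot decide whether the numbers pair samples. Alternatives were other scalings (quantile, median centring, percentile taken over the probes detected everywhere, normexp on median signals with an offset of 50), the deposited series table, no filter or a stricter one on dim probes, all probes of a gene averaged or tested singly, trended and robust variance, weights per array, a replicate block and each array left out. Kept outlier spots, and exact permutation for single genes, were added after seeing the data, and normexp used the spots' median signal. The number of arrays limits the precision.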

Additional observations from a re-analysis of the deposited data

Results flagged for a closer look

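Of 37 groups of 4 arrays examined among the named genes, 1 held an array far from the others, where about 1 in 20 is flagged by chance. In Eucommia, the Lpl probe with 10 spots read -3.02 on array 2 and -2.82 to -2.78 on the others, a gap of 0.841 of the group's whole range. Without Eucommia 2 the Lpl difference was -0.07 (adjusted p = 0.709, limma), against -0.13 with it.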

How the results depend on the processing

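Over 22 alternatives, 17 called none of the 7 genes. Quantile normalization called 2 (Lcat and Lpl), median centring 3 (Lpl, Abca1 at -0.36 and Abcg1 at -0.61), and the percentile over detected probes, cyclic loess and normexp with quantile normalization 1 each (Lcat, at 0.32, 0.36 and 0.26); the cause was not tested. Median centring moved the median of all genes from 0.02 to -0.24, so values under it are read against that shift. The sign of Angptl4 turned with quantile normalization (0.022), the percentile over detected probes (0.0042), cyclic loess (0.031), normexp (0.10) and array weights (0.063), and its values with 1 array left out ran from -0.17 to 0.084. That of Lipc turned with median centring (-0.25), array weights (-0.076) and the replicate block (-0.062), and ran from -0.10 to 0.080 with 1 array left out. Lcat, Scarb1, Lpl, Abca1 and Abcg1 kept their sign in all 22. Some of these settings return the main difference by construction, so a kept sign there says nothing. For Lcat, Abca1 and Abcg1 these were the series table, both filter changes, probes averaged or singly, trended variance and the replicate block. All genes called numbered 6181, against 11818 with median centring, 12806 with no filter (42.1% higher), 3725 with the filter on all 8 arrays (62.4% higher) and 3321 to 5773 with 1 array left out (3734, 3321, 3575 and 3877 without Eucommia 1 to 4). With the replicate block, which pairs arrays by a shared number only, 5149 were called and 0 of the 7 genes. Under it Pcsk6 (adjusted p = 0.0818, limma) and Ehhadh (0.0566) lost the call, as did Apoe, Fasn and Lpcat3. The slide as a block could not be fitted.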
